A study of Canis lupus familiaris with 16 samples.

Results

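The comparison described here set sorafenib at 30 µM against toceranib at 15 µM within each of 4 canine hepatocellular carcinoma (HCC) cell lines. The lines were KU-cHCC-001, KU-cHCC-002, then KU-cHCC-004 and lastly KU-cHCC-005, and values listed per line or with each line left out in turn keep this order. Its members were the 8 RNA-seq libraries labelled with either drug, of 16 libraries in all, and each line contributed 1 library per drug. The lines were established from hepatic tumours of canine patients, and the cells were harvested after 24 h of treatment in Advanced DMEM with fetal bovine serum and N-acetyl-L-cysteine. The other 8 libraries held the vehicle of each drug, DMSO for sorafenib and DPBS (phosphate-buffered saline) for toceranib. They were not subtracted, and their levels are given only as background. Because the drugs were given at different doses and in different vehicles, drug, dose and vehicle cannot be told apart in any difference below.

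Sorafenib, a diaryl urea used against human liver cancer, inhibits RAF kinases and receptor tyrosine kinases of the VEGF and PDGF receptor families. Toceranib, an indolinone developed for canine mast cell tumours, inhibits KIT and the VEGF and PDGF receptors. Sorafenib is also known as an uncoupler and inhibitor of the mitochondrial respiratory chain and as an inhibitor of cystine uptake.

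Library totals ran from 19667162 to 20312123 counts with sorafenib and from 12008366 to 21943572 with toceranib, the lowest being the toceranib library of KU-cHCC-005. The cells carried bile duct and progenitor transcripts (EPCAM at 208 to 690 CPM) and almost no albumin (ALB, at most 0.430 CPM), so the albumin that defines hepatocytes was near 0 in cells labelled HCC. CPM are read counts scaled to the library's effective size by TMM. Some toceranib libraries matched their labels only in part. For 22 genes that set KU-cHCC-005 above the other lines in the DMSO and sorafenib libraries, the median level, as log2(CPM + 0.5), was 3.67 in its DMSO, 4.20 in its sorafenib and 2.37 in its toceranib library. Over 12 genes that set it below, the values were 0.37, 0.51 and 2.31. The toceranib libraries of the other lines stood at -0.83 to -0.37 for the genes above and at 3.97 to 5.11 for those below. On both sets the library thus stayed on the side of its label. Smaller rises from DMSO to toceranib held for genes that set KU-cHCC-001 (237 genes), KU-cHCC-002 (21) and KU-cHCC-004 (2) below. Their medians were 0.63, -0.32 and -0.63 with DMSO and 1.36, 0.91 and 0.30 with toceranib. Genes that set these lines above stood at 3.95, 2.58 and 3.47 with DMSO and at 3.96, 3.38 and 2.70 with toceranib. All these genes were chosen on the DMSO and sorafenib libraries, so part of a shift with toceranib can follow from that choice. Stromal transcripts followed the toceranib library of KU-cHCC-005: the collagen COL3A1 stood at 0 CPM in all 4 sorafenib libraries and at 52.4 and 6.57 CPM in the toceranib libraries of KU-cHCC-005 and, lower, KU-cHCC-004. In the toceranib library of KU-cHCC-001, CD74, an antigen presentation chaperone, stood at 322 CPM against at most 5.26 CPM in the other 7. In bulk RNA, fewer cells of a type and less RNA per cell cannot be told apart. For most lists, counts are therefore also given with each line left out.

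Many genes differed in level between the sorafenib and toceranib libraries. Of 14320 genes tested, 3949 (27.6%) were called at an edgeR adjusted p under 0.05. Of these, 1876 (13.1% of all tested) had the higher level under sorafenib and 2073 (14.5%) the higher level under toceranib. Of the 3949, 3798 had 1 sign in all 4 lines, and over all genes the drug groups did not overlap for 2997 (20.9%). At 4-fold or more the called genes leaned to 1 side, with 167 higher and 646 lower. The share of higher genes among those called was 47.5%, and 36.2% under upper quartile scaling, where the median log2 fold change of all genes was -0.15 in place of -0.03. The count depended on the lines: 6008, 1791, 819 and 1902 genes were called without each line in turn, 667 without both KU-cHCC-004 and KU-cHCC-005, and 732 of the 3949 passed in every fit without 1 line. Counts given below for a list without each line can rise and fall with these totals and are to be read against them. Across genes the per-line differences of KU-cHCC-001 correlated with those of the other lines at Pearson's r of 0.39 to 0.51, and the other 3 lines with each other at 0.69 to 0.75, over 14320 genes that share their libraries.

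**Figure D1:**
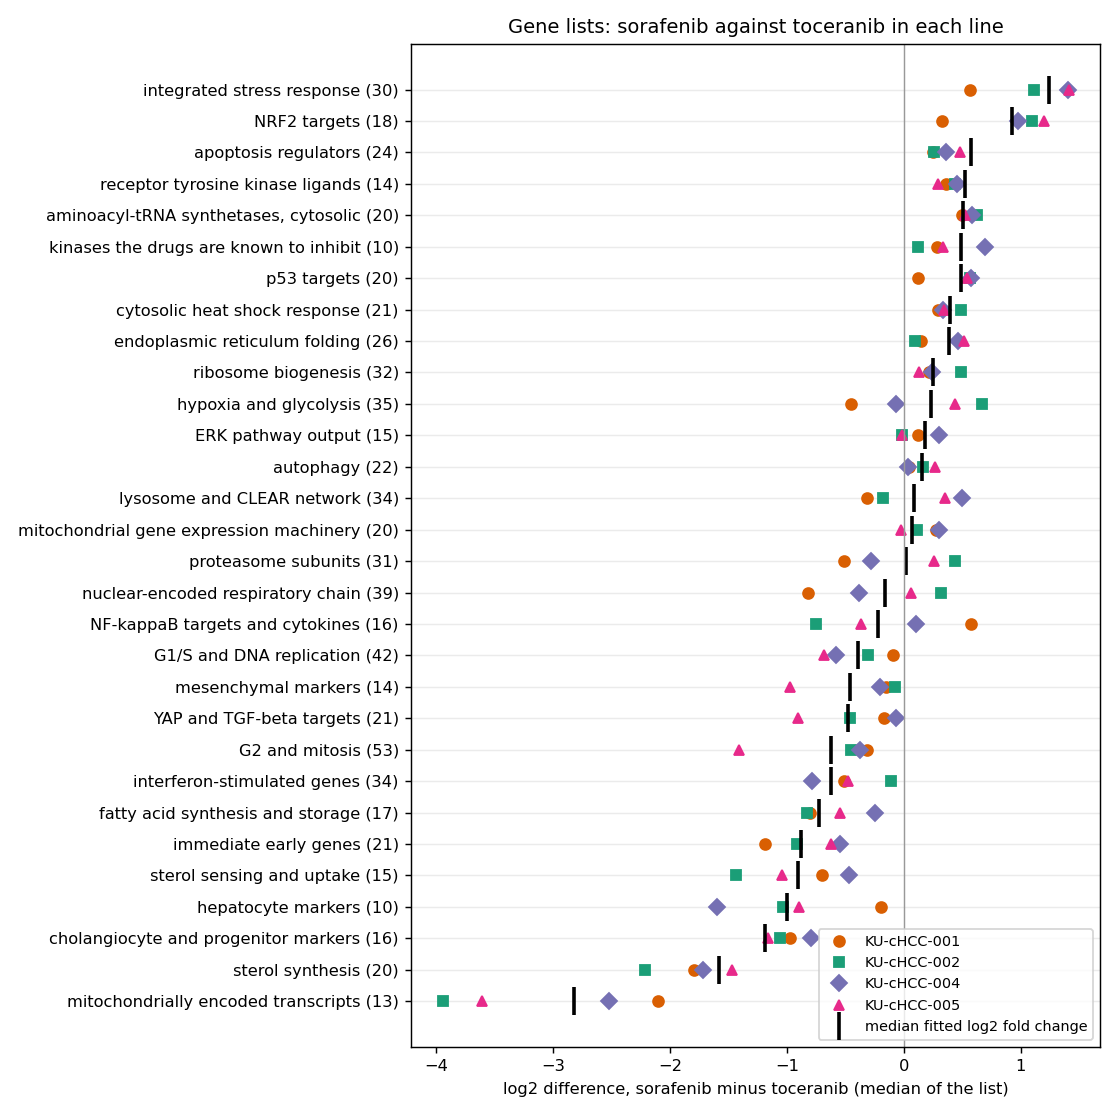
Median log2 difference, sorafenib minus toceranib, of each of 30 gene lists with 10 or more tested genes (number in brackets). Coloured symbols are the 4 lines and black bars the median of the fitted log2 fold changes. Mitochondrial transcripts (-2.82) and sterol synthesis (-1.58) lie lowest and the integrated stress response (1.24) highest, with all 4 lines on 1 side of 0 in these lists.

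The 12 largest increases among named genes included those of FGF21, BHLHA15 and IL20RB. FGF21, a stress-induced hormone of energy metabolism, stood at 16.4, 6.30, 33.3 and 33.5 CPM with sorafenib and at 0.974, 0.0600, 0.876 and 0.945 CPM with toceranib. The groups did not overlap, and the log2 fold change was 4.99 ± 0.41 (SE, n = 4 lines, edgeR adjusted p = 0.000497). BHLHA15, a transcription factor of secretory cells also named MIST1, stood at 9.02, 14.9, 16.5 and 28.2 CPM against 1.48, 0.480, 0.986 and 0.859 CPM. All sorafenib libraries were above all toceranib libraries (4.08 ± 0.48, edgeR adjusted p = 0.00164).

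IL20RB, a receptor subunit for interleukin 20 cytokines, stood at 2.99, 9.84, 25.4 and 62.7 CPM with sorafenib and at 0.297, 1.08, 0.876 and 0.515 CPM with toceranib. The groups did not overlap, and sorafenib varied widely between lines (4.53 ± 0.62, edgeR adjusted p = 0.00322). OLR1, which binds oxidised LDL, had 10326 counts in the sorafenib libraries and 3 in the toceranib libraries, a ratio of 2956 with a 95% counting interval of 1011 to 14334; most of these counts came from KU-cHCC-005 (421 CPM) and KU-cHCC-004 (105 CPM). The others were the phospholipase PLCE1 (5.08), the Rac regulator CHN1 (4.77), the guidance factor SEMA3A (4.50), the PI3-kinase gamma regulator PIK3R5 (4.15), the phosphatase DUSP2 (3.75), the adhesion adaptor PARVB (3.60), the secreted OLFM1 (3.55) and the sugar phosphate carrier SLC37A2 (3.47). With toceranib, PARVB reached 26.7 CPM in KU-cHCC-001 but no more than 0.720 CPM elsewhere, and it passed in 1 of the 4 fits that left out a line. In the fits without each line in turn, 12, 10, 11 and 11 of the 12 passed, and 9 passed without the block for line. With the vehicles subtracted 2 of the 12 passed, IL20RB and BHLHA15.

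Genes of epithelial junctions and secreted proteins headed the other direction. CLDN2, a pore-forming tight junction protein, stood at 1.80, 3.25, 0.838 and 1.07 CPM with sorafenib and at 54.8, 68.3, 29.0 and 29.5 CPM with toceranib. The groups were far apart in every line (log2 fold change -4.79 ± 0.25, edgeR adjusted p = 0.000135), and DMSO lay with toceranib at 44.0 ± 24.8 CPM (SD, n = 4). SPP1, which encodes osteopontin, stood at 30.3, 2.02, 8.75 and 1.74 CPM against 2453, 297, 206 and 94.1 CPM. The lowest toceranib library was still above the highest sorafenib library (-5.96 ± 0.46, edgeR adjusted p = 0.000473). GJB1, the gap junction protein connexin 32, stood at 0.0440, 3.0, 0.0524 and 0.153 CPM against 2.46, 233, 12.2 and 40.5 CPM. KU-cHCC-002 with sorafenib was above KU-cHCC-001 with toceranib, so the groups overlapped although each line moved the same way (-6.81 ± 0.38, edgeR adjusted p = 0.000150).

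The other 9 decreases were those of SERPINF2, the plasmin inhibitor (-5.71), PLEKHS1 (-5.64), the glutathione-cleaving GGT1 (-4.84), the ribonuclease RNASE4 (-4.61), the mitochondrial transcript CYTB (-4.49), the FGF carrier FGFBP1 (-4.49), DCDC2, a doublecortin protein of cilia (-4.47), the collagen COL11A2 (-4.23) and the selenium carrier SELENOP (-4.21). SERPINF2 stood at 0.0524 to 0.511 CPM with sorafenib and 5.75 to 42.4 CPM with toceranib, a gap between groups in all lines. PLEKHS1 reached 133 CPM with toceranib in KU-cHCC-002 but 0.381 CPM in KU-cHCC-001, below its level with sorafenib in KU-cHCC-002 and in KU-cHCC-004. Of these 12 decreases, the number that passed was 11, 12, 11 and 10 without each line in turn, and 6 without the block for line. With the vehicles subtracted 3 passed, SPP1, CLDN2 and CYTB.

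**Figure D2:**
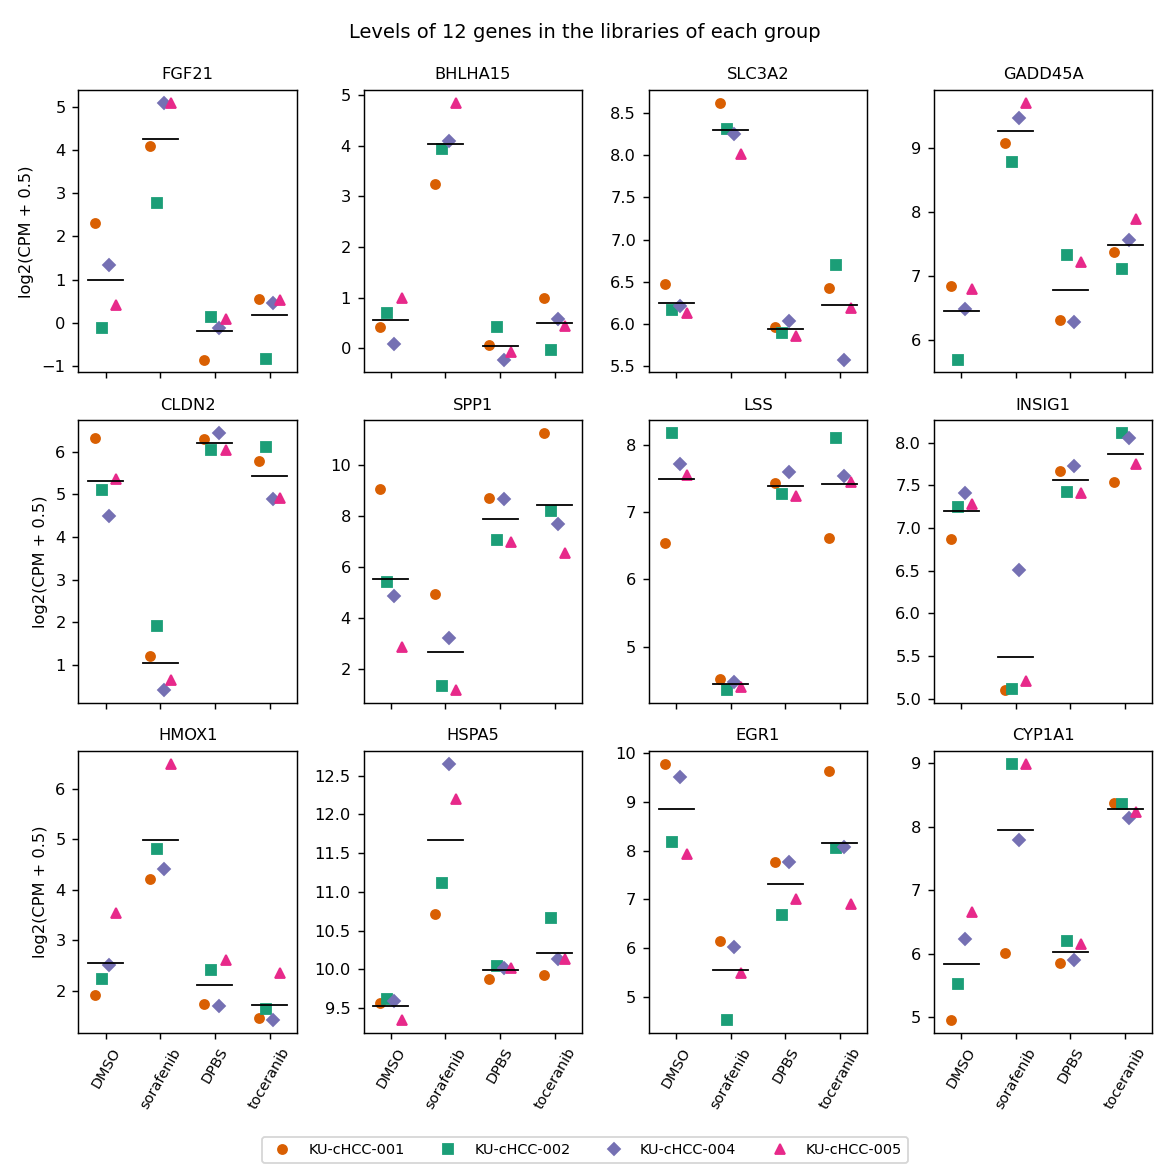
Levels of 12 genes, log2(CPM + 0.5) on the vertical axis (scales differ by panel), in the 4 libraries of each group; symbols are lines and bars are group means. LSS and CLDN2 with sorafenib lie below all other libraries, FGF21, BHLHA15 and SLC3A2 above all other libraries, and CYP1A1 lies above the vehicle libraries except for the sorafenib library of KU-cHCC-001, which is within their range.

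Cholesterol synthesis was lower with sorafenib along almost the whole pathway. Of 20 enzymes, all tested, 16 were lower, 0 were higher and 4 did not pass, with a median log2 fold change of -1.58 against -0.03 over all genes tested and 14.5% of all genes lower. Early steps included HMGCS1, which makes the precursor of mevalonate, at 62.4, 61.6, 94.8 and 71.5 CPM with sorafenib and 230, 399, 416 and 403 CPM with toceranib. No sorafenib library reached the lowest toceranib library (-2.31 ± 0.22, edgeR adjusted p = 0.000805).

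Among the sterol-forming steps, LSS, the lanosterol synthase that closes the sterol rings, was nearly constant with sorafenib at 22.4, 20.0, 21.8 and 20.5 CPM and varied from 97.3 to 274 CPM with toceranib. The DMSO libraries, at 195 ± 80.5 CPM, lay in the toceranib range (-3.03 ± 0.29, edgeR adjusted p = 0.000805). EBP, the sterol isomerase, stood at 17.2, 36.6, 38.3 and 37.9 CPM against 71.5, 244, 235 and 201 CPM, without overlap (-2.46 ± 0.20, edgeR adjusted p = 0.000497). FDPS (-2.42), which makes farnesyl diphosphate, FDFT1 (-2.11), the squalene synthase, SQLE (-2.09), the squalene epoxidase, and the C4-demethylation enzymes MSMO1 (-2.44), HSD17B7 (-2.05) and NSDHL (-1.56) were lower too. The 4 enzymes that did not pass were MVK (-0.37, edgeR adjusted p = 0.177), PMVK (-0.06, 0.907), CYP51A1 (-0.55, 0.0907) and DHCR7 (-0.57, 0.244). The count of lower enzymes was 17, 15, 14 and 15 without each line in turn, and 12 without the last pair of lines together. The median vehicle difference, DMSO minus DPBS, was 0.03 for this list, and 15 enzymes were lower when each drug was set against its own vehicle.

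**Figure D3:**
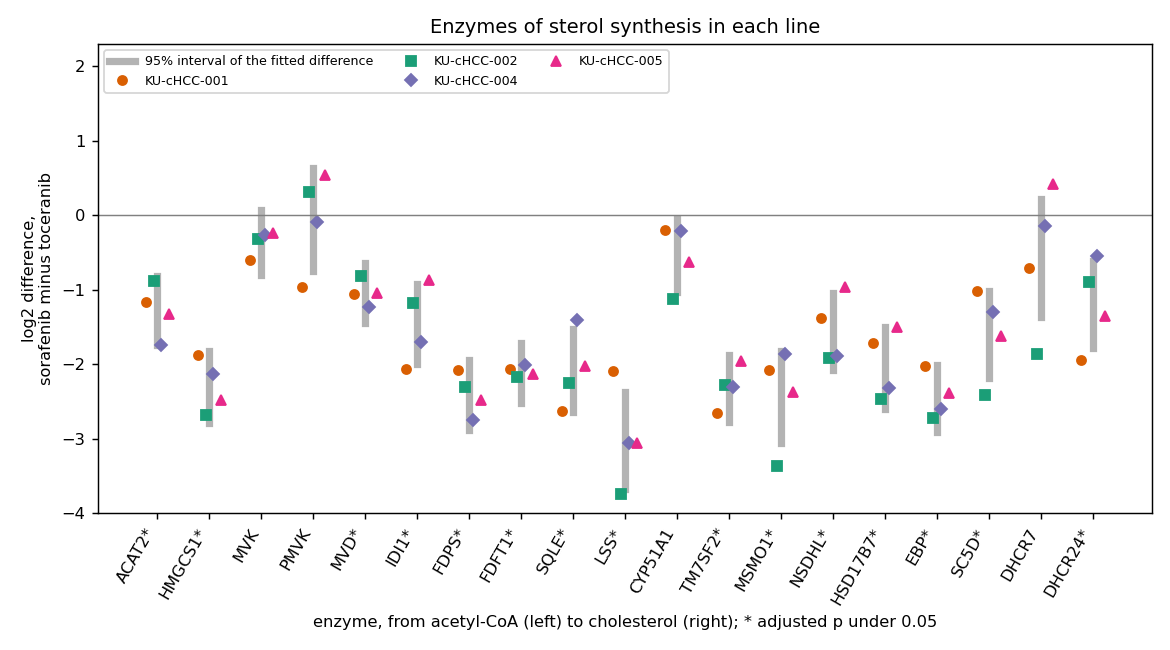
Per-line log2 difference, sorafenib minus toceranib, of enzymes ordered along cholesterol synthesis, with the 95% interval of the fitted difference as a grey bar. Nearly all symbols lie below 0, lowest for LSS (fitted -3.03); PMVK and DHCR7 have lines on both sides of 0.

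Genes of sterol sensing and uptake moved with the enzymes. Of 15 tested, 7 were lower and 1 was higher (median -0.91), 53.3% called against 27.6% of all genes tested. INSIG1, which retains the SREBP complex in the endoplasmic reticulum, stood at 33.9, 34.2, 90.2 and 36.4 CPM with sorafenib and 185, 276, 265 and 215 CPM with toceranib. The groups did not overlap (-2.40 ± 0.26, edgeR adjusted p = 0.00137). The absorption transporter NPC1L1 (-2.65), the ubiquitin ligase MYLIP (-2.04), the lipid phosphatase LPIN1 (-1.80) and the master regulator SREBF2 (-0.98) were lower, and NPC1, which exports cholesterol from lysosomes, was higher (0.74). MYLIP is a target of LXR and not of SREBP2. The number lower was 8, 4, 5 and 5 without each line in turn, and NPC1 passed in 1 of these 4 fits, the one without KU-cHCC-001, and not under upper quartile scaling.

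In fatty acid synthesis and storage, 6 of 17 tested genes were lower and 3 higher (median -0.72). The share called was 52.9%, against 27.6% of all genes tested. ELOVL6, which elongates palmitate, stood at 22.3, 39.8, 51.1 and 53.5 CPM against 64.6, 244, 192 and 233 CPM, with no overlap (-2.05 ± 0.22, edgeR adjusted p = 0.00139). FASN, the fatty acid synthase (-1.30), ACLY, which supplies cytosolic acetyl-CoA (-1.12), and the desaturase FADS2 (-1.0) were lower. The NADPH-producing malic enzyme ME1 (1.31), the first enzyme of glycerolipid synthesis GPAM (0.98) and the lipid droplet protein PLIN2 (0.59) were higher. Lower counts were 6, 3, 2 and 3, and higher counts 4, 2, 1 and 2, without each line in turn.

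Transcripts of the mitochondrial genome, which encode core subunits of the respiratory chain and of the ATP synthase, were lower with sorafenib in every line. Of 13, 12 passed, all lower, with a median of -2.82, which is 92.3% called against 27.6% of all genes tested. CYTB, the complex III cytochrome b, stood at 199, 181, 409 and 239 CPM with sorafenib and at 2299, 6207, 7415 and 8350 CPM with toceranib. The lowest toceranib value was several times the highest sorafenib value (-4.49 ± 0.39, edgeR adjusted p = 0.000539). The largest differences after CYTB were in the complex I subunits ND3 (-4.12) and ND6 (-4.04) and the smallest called ones in the ATP synthase subunits ATP6 (-2.31) and ATP8 (-1.99). ND6 lies on the other strand of the mitochondrial genome from the rest. COX1, a complex IV subunit, had 0 counts in the toceranib library of KU-cHCC-004, where the other 12 were high, and did not pass (-2.64 ± 2.74, edgeR adjusted p = 0.502). Without that line 13 of 13 were lower, and 12 were lower without each of the other lines.

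As a share of all counts, the 12 transcripts without COX1 took 0.936%, 0.782%, 1.51% and 0.783% with sorafenib and 3.95%, 7.93%, 8.73% and 8.90% with toceranib. All sorafenib libraries were below all toceranib libraries, at 1.00% ± 0.345 against 7.38% ± 2.32 (SD, n = 4), lower in 4 of 4 lines. The exact two-sided permutation p within lines was 0.125, the smallest that the 16 arrangements allow, so this permutation test cannot pass 0.05. The vehicles stood between and beside them, at 3.64% ± 0.387 with DMSO and 7.0% ± 0.433 with DPBS. The vehicle difference of the list (median -0.97) had the same sign, its part in the drug difference was not tested, and 9 of 13 transcripts were lower with the vehicles subtracted.

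**Figure D4:**
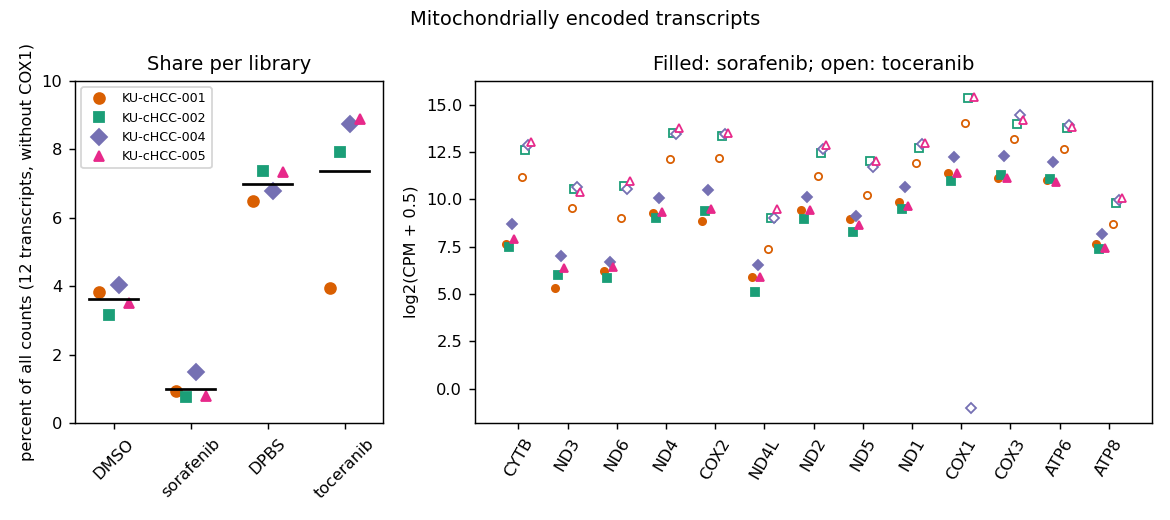
Left, percent of all counts in 12 mitochondrial transcripts per library, with group means as bars; right, log2(CPM + 0.5) of the 13 transcripts in the 8 drug libraries. Filled sorafenib symbols lie below open toceranib symbols for each transcript, except that COX1 is listed at 0 in the toceranib library of KU-cHCC-004.

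Nuclear genes of the same complexes differed much less, with 15.4% called against 27.6% of all genes tested. For the genes acting on the mitochondrial genome this share was 20%. Of 39 tested, 6 were lower and 0 higher (median -0.16), among them the complex I subunits NDUFB5 (-1.20) and NDUFA2 (-1.14) and the succinate dehydrogenase subunit SDHA (-0.80). The per-line medians ran from -0.82 in KU-cHCC-001 to 0.32 in KU-cHCC-002. Of 20 genes that transcribe, process or copy the mitochondrial genome, 3 were higher, the rRNA methyltransferase and transcription factor TFB2M (0.84), the mRNA stabiliser LRPPRC (0.75) and FASTKD2 (0.60), and 1 was lower, the mitochondrial RNA polymerase POLRMT (-0.71). TFAM, which packages mitochondrial DNA and starts its transcription, did not pass (0.13, 95% interval -0.31 to 0.56). The nuclear respiratory counts lower were 6, 3, 1 and 2 without each line, with 3 genes higher and a median of 0.01 without KU-cHCC-001, and each of the 4 called machinery genes passed in 1 of those 4 fits.

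Most genes of the integrated stress response, a program of amino acid supply and redox genes known to be driven by ATF4 and CHOP, were higher with sorafenib. Of 30 tested members 21 were higher and 1 lower, with a median of 1.24 and 73.3% called against 27.6% of all genes tested. SLC3A2, the shared heavy chain of amino acid transporters, stood at 392, 316, 304 and 258 CPM with sorafenib and 85.4, 104, 47.3 and 72.3 CPM with toceranib. The groups were separated in all lines, with DMSO at 75.8 ± 8.73 CPM (2.08 ± 0.23, edgeR adjusted p = 0.00152). SLC7A11, the cystine carrier that pairs with it, stood at 61.0, 9.20, 29.1 and 13.3 CPM against 4.28, 1.86, 1.81 and 2.06 CPM, again without overlap (3.23 ± 0.36, edgeR adjusted p = 0.00153).

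TRIB3, a pseudokinase that restrains ATF4 (2.06), SESN2 (2.03), a leucine sensor, PPP1R15A (1.64), which reverses eIF2α phosphorylation, CHAC1 (1.58), which degrades glutathione, the mitochondrial folate enzymes ALDH1L2 (2.34) and MTHFD2 (1.05), ASNS (0.98), the asparagine synthetase, and DDIT3 (1.15), which encodes CHOP, were also higher. The ATF4 transcript itself, at 589 to 691 CPM with sorafenib and 463 to 673 CPM with toceranib, did not pass (0.10, 95% interval -0.38 to 0.59, edgeR adjusted p = 0.740). ATF3, a stress transcription factor that is also an immediate early gene, was the lower one, at 70.4, 62.7, 60.7 and 70.3 CPM against 138, 114, 88.6 and 146 CPM. Both drugs stood above DMSO for ATF3 (35.7 CPM), although DMSO was not the vehicle of toceranib. The toceranib libraries were all higher than the sorafenib libraries (-0.86 ± 0.18, edgeR adjusted p = 0.0116). The counts of higher members were 24, 17, 11 and 17 without each line in turn, and 6 with the vehicles subtracted. The list's median vehicle difference was 0.53 in the same direction. Medians against DMSO were 1.00 for sorafenib and -0.34 for toceranib. The vehicle of toceranib was DPBS, so its value is not a change from its own vehicle.

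Cytosolic aminoacyl-tRNA synthetases, many of them ATF4 targets, were moderately higher. Of 20, 9 passed and none was lower (median 0.51), led by YARS1 (1.22), LARS1 (0.98) and KARS1 (0.96). The share called was 45%, against 27.6% of all genes tested. YARS1 stood at 204 to 321 CPM with sorafenib and 92.6 to 136 CPM with toceranib, without overlap. The count was 9, 4, 0 and 4 without each line in turn; the list median without KU-cHCC-004 was 0.51, the same as with it.

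In the endoplasmic reticulum, 7 of 26 folding genes were higher and 2 lower (median 0.38). The share called was 34.6% here and 38.1% for cytosolic heat shock genes, against 27.6% of all genes tested. HSPA5, the main chaperone of that compartment, stood at 1678, 2214, 6462 and 4725 CPM with sorafenib and 977, 1626, 1121 and 1120 CPM with toceranib. The groups were close together in KU-cHCC-001 and KU-cHCC-002 and far apart in the other lines (1.45 ± 0.40, edgeR adjusted p = 0.0273). The coat protein SEC24D (1.96), the chaperone HYOU1 (1.64) and the transcription factor XBP1 (0.80) were higher, and the degradation factors DERL3 (-2.10, at most 1.06 CPM) and DERL2 (-0.67) lower. Of 21 cytosolic heat shock genes 6 were higher and 2 lower (median 0.39), with HSP90AA1 (1.06), its co-chaperones STIP1 (0.78) and FKBP4 (0.72), HSPA8 (0.82), HSPA4L (1.26) and the regulator HSF1 (0.81) higher and HSPB8 (-1.28) and DNAJB4 (-1.01) lower. Higher counts without each line in turn were 9, 4, 2 and 3 for the reticulum and 8, 2, 0 and 1 for heat shock.

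Targets of NRF2, the transcription factor of the antioxidant response, were mostly higher, 10 of 18 tested against 2 lower (median 0.92). The share called was 66.7%, against 27.6% of all genes tested. HMOX1, heme oxygenase 1, stood at 18.2, 27.5, 20.8 and 89.6 CPM with sorafenib and 2.29, 2.64, 2.19 and 4.64 CPM with toceranib. All sorafenib libraries were above all toceranib libraries (3.47 ± 0.29, edgeR adjusted p = 0.000516). TXNRD1, thioredoxin reductase, stood at 947, 335, 532 and 681 CPM against 259, 101, 118 and 145 CPM, without overlap (2.0 ± 0.21, edgeR adjusted p = 0.00107). Glutathione reductase GSR (1.71), sulfiredoxin SRXN1 (1.65), ferritin light chain FTL (1.32) and the glutathione synthesis subunits GCLM (0.99) and GCLC (0.85) were higher, as was NQO1 (1.22) in all lines but KU-cHCC-001. The exporter ABCC3 (-0.86) and OSGIN1 (-0.71) were lower. The higher count was 10, 8, 6 and 7 without each line in turn and 4 with the vehicles subtracted, and the vehicle median was 0.41.

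Metal-binding genes went in opposite directions within 1 short list of 6 tested genes, 66.7% called against 27.6% of all genes tested. The metallothioneins MT1E (-2.10) and MT2A (-1.62) were lower and the zinc importers SLC39A14 (1.72) and SLC39A10 (1.39) higher. MT1E stood at 12.8, 9.35, 7.59 and 14.8 CPM with sorafenib and 43.3, 49.7, 43.8 and 47.4 CPM with toceranib, and the groups did not overlap. Metallothionein copies are near-identical, so reads may be shared among them. Counts higher were 3, 2, 1 and 2 and counts lower 2, 2, 2 and 2 without each line in turn.

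Signalling outputs divided by gene. Of 21 immediate early genes 9 were lower and 4 higher (median -0.88), 61.9% called against 27.6% of all genes tested. EGR1, a transcription factor induced by ERK signalling, stood at 69.9, 22.5, 64.3 and 44.5 CPM with sorafenib and 795, 264, 270 and 118 CPM with toceranib. The groups did not overlap, and DMSO stood at 535 ± 317 CPM (-2.65 ± 0.40, edgeR adjusted p = 0.00453). KLF6 (-1.86), JUNB (-1.56), JUN (-0.96), IER2 (-1.21) and the nuclear receptors NR4A1 (-2.67) and NR4A2 (-2.93) were lower. FOS, lower in 4 of 4 lines, did not pass (-1.72 ± 0.54, edgeR adjusted p = 0.0509). GEM, a small GTPase, was higher at 70.7, 42.5, 24.7 and 19.8 CPM against 3.22, 5.10, 6.85 and 1.63 CPM, without overlap (3.22 ± 0.42, edgeR adjusted p = 0.00262). The lower counts were 10, 6, 7 and 8 without each line in turn.

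Of 15 tested slower readouts of the RAF-MEK-ERK cascade 3 were higher and 1 lower, with a median of 0.18. That share of calls is close to that of all genes, and the difference from the immediate early genes was not tested. The ETS factor ETV5, at 39.1, 23.5, 29.7 and 31.7 CPM against 8.13, 8.88, 7.94 and 10.5 CPM, was higher without overlap (1.79 ± 0.24, edgeR adjusted p = 0.00289). FOSL1 (1.21) and the feedback inhibitor SPRY4 (1.13) were higher and SPRY1 (-0.79) was lower. The ERK phosphatase DUSP6 (0.28, 95% interval -0.23 to 0.78) and CCND1, cyclin D1 (-0.10, -0.53 to 0.33), did not pass. Without KU-cHCC-001 the list had 3 higher and 3 lower genes and a median of -0.02, and without each of the other lines 2 higher.

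Among 20 p53 targets 8 were higher and 2 lower (median 0.49), 50% called against 27.6% of all genes tested. GADD45A, a growth arrest gene, stood at 541, 441, 707 and 831 CPM with sorafenib and 167, 137, 188 and 237 CPM with toceranib, without overlap (1.77 ± 0.19, edgeR adjusted p = 0.00137). CDKN1A, the cell cycle inhibitor p21, stood at 128, 706, 881 and 864 CPM against 78.5, 114, 192 and 290 CPM. Its level in KU-cHCC-001 with sorafenib fell within the toceranib range (1.78 ± 0.32, edgeR adjusted p = 0.00688). PLK3 (2.69), the nuclease AEN (1.62), ZMAT3 (1.21), CCNG1 (1.16), MDM2 (0.91) and TIGAR (0.74) were higher. TP53INP1 was lower at 0.528, 4.43, 8.01 and 5.11 CPM against 7.54, 53.1, 51.5 and 47.5 CPM (-3.29 ± 0.27, edgeR adjusted p = 0.000497), as was SESN1 (-1.11). For TP53INP1 each line was lower, and the groups overlapped through KU-cHCC-001. Higher counts were 11, 6, 4 and 6 without each line in turn.

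A part of the proliferation genes was lower with sorafenib, to differing extents by line. Of 53 genes of G2 and mitosis 15 were lower and 1 higher (median -0.62), and 15 of 42 G1/S and replication genes were lower and 1 higher (median -0.39). The shares called were 30.2% and 38.1% of these lists, against 27.6% of all genes tested. Under upper quartile scaling neither list had a higher gene. MKI67, the Ki-67 proliferation marker, stood at 342, 80.6, 59.0 and 17.4 CPM with sorafenib and 436, 312, 190 and 166 CPM with toceranib. The groups overlapped because KU-cHCC-001 was high under both drugs (-1.81 ± 0.42, edgeR adjusted p = 0.0183). HJURP, which loads the centromeric histone, stood at 32.7, 14.4, 9.01 and 2.61 CPM against 121, 44.8, 35.4 and 37.7 CPM, without overlap (-2.28 ± 0.36, edgeR adjusted p = 0.00468). The mitotic kinase PLK1 (-1.14), cyclin B1 CCNB1 (-1.33), the phosphatase CDC25C (-1.84) and the kinesin KIF20A (-1.74) were lower, and the kinesin KIF2C was the higher one (0.64).

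In G1/S, cyclin E2 CCNE2 (-2.73), the ribonucleotide reductase subunit RRM2 (-1.25) and the replicative helicase subunits MCM5 (-1.26), MCM2 (-1.08) and MCM3 (-0.83) were lower. CCNE2 stood at 16.6, 2.26, 1.94 and 1.64 CPM with sorafenib and 52.4, 19.1, 13.7 and 18.0 CPM with toceranib; each line was lower, and KU-cHCC-001 made the groups overlap. The per-line medians of the mitotic list were -0.31, -0.45, -0.38 and -1.41. Lower counts without each line in turn were 24, 7, 2 and 10 for mitosis and 20, 8, 3 and 7 for G1/S. Calls over all genes, in either direction, rose and fell in the same fits, at 6008, 1791, 819 and 1902. Without the block for line 0 mitotic genes and 1 G1/S gene were lower. Against DMSO the mitotic medians were -0.98 with sorafenib and -0.40 with toceranib, whose own vehicle was DPBS. The median vehicle difference of the mitotic list, DMSO minus DPBS, was 0.24.

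Interferon-stimulated genes were lower in 10 of 34 tested cases and higher in 1 (median -0.62), 32.4% called against 27.6% of all genes tested. MX1, an antiviral GTPase, stood at 3.25, 2.75, 9.69 and 1.28 CPM with sorafenib and 25.0, 6.90, 52.2 and 5.07 CPM with toceranib. Each line was lower, the groups overlapped, and DMSO was higher than either drug on average at 263 ± 481 CPM (-2.19 ± 0.33, edgeR adjusted p = 0.00387). IRF9, which completes the interferon-activated transcription complex (-1.66), IFI44L (-2.24), ISG15 (-2.38) and RSAD2 (-2.21) were lower, and the helicase DDX60 (2.75), at 0 counts under both drugs in KU-cHCC-001, was higher. Of 16 NF-kappaB targets and cytokines, the inhibitor NFKBIA, at 66.4, 55.5, 49.1 and 56.4 CPM against 247, 266, 188 and 209 CPM (-2.0 ± 0.18, edgeR adjusted p = 0.000793), and IRF1 (-0.80) were lower and IL11 (1.69) higher. The NF-kappaB share called was 18.8%, below that of all genes. The interferon counts lower were 11, 7, 1 and 7 without each line in turn, and 1 without the block for line. The NF-kappaB list (median -0.22) had 7 lower genes and a median of -0.68 without KU-cHCC-001, and 1 lower gene without each other line; with the vehicles subtracted its median was 0.33.

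No YAP or TGF-beta target of 21 tested was higher and 4 were lower (median -0.48). The share called was 19.0%, below the 27.6% of all genes tested. ID2, a dominant-negative helix-loop-helix factor, stood at 8.36, 13.2, 21.1 and 21.4 CPM with sorafenib and 167, 78.0, 180 and 114 CPM with toceranib. The groups did not overlap (-3.08 ± 0.33, edgeR adjusted p = 0.00132). ID1 (-2.11) and the matricellular YAP targets CCN2 (-1.82) and CCN1 (-1.0) were the others. The count was 8, 2, 3 and 2 without each line in turn, and 1 gene was higher without KU-cHCC-001.

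CYP1A1 is the best known target of the aryl hydrocarbon receptor, a xenobiotic sensor, and its levels varied by line under sorafenib. CYP1A1 stood at 63.9, 508, 221 and 509 CPM with sorafenib and 331, 327, 280 and 300 CPM with toceranib, against 62.9 ± 31.3 CPM with DMSO and 65.1 ± 8.03 CPM with DPBS. The toceranib libraries were close together and the sorafenib libraries lay on both sides of them. The drugs did not differ past the threshold, with a log2 fold change of -0.27 and a 95% interval of -1.46 to 0.91 (edgeR adjusted p = 0.713). TIPARP (0.10, 95% interval -0.38 to 0.59) and CYP1B1 (0.12, -0.72 to 0.97) did not pass either. Of the 8 tested targets, AHRR, the receptor's repressor (1.15), and NQO1 were higher, 25% called against 27.6% of all genes tested. Each passed in 1 of the 4 fits without a line, the one without KU-cHCC-001.

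Lysosomal, autophagy and hypoxia genes had calls in both directions. The shares called were 32.4%, 36.4% and 31.4% in this order, against 27.6% of all genes tested. Of 34 lysosomal genes 7 were higher and 4 lower (median 0.09; 4 higher and 5 lower under upper quartile scaling), with the Rag GTPase RRAGD (1.44), the factor MITF (1.32) and the glycoprotein CD68 (3.0) higher and the tetraspanin CD63 (-1.07) and the cathepsin CTSK (-1.43) lower. Of 22 autophagy genes 5 were higher and 3 lower (median 0.16; 3 higher and 5 lower under upper quartile scaling). WIPI1, a phosphoinositide-binding autophagy protein, stood at 28.5, 21.7, 37.0 and 51.0 CPM with sorafenib and 6.14, 4.50, 8.43 and 10.5 CPM with toceranib, without overlap (2.22 ± 0.21, edgeR adjusted p = 0.000806). GABARAPL1 (1.17) was higher and the starter kinase ULK1 (-1.11) and MAP1LC3B (-0.64), which encodes LC3B, were lower.

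Of 35 hypoxia and glycolysis genes 6 were higher and 5 lower (median 0.23). The glucose transporter SLC2A1 stood at 261, 1061, 1105 and 1039.7 CPM with sorafenib and 235, 374, 240 and 298 CPM with toceranib; KU-cHCC-001 hardly differed and the other lines were far apart (1.43 ± 0.34, edgeR adjusted p = 0.0167). Hexokinase HK2 (1.06), NDRG1 (1.44), PDK1 (1.72) and the carbonic anhydrase CA12 (3.28) were higher and ANKRD37 (-1.91), ALDOC (-1.42) and PFKL (-0.98) lower. CA12 stood at 214 CPM with sorafenib and 215 CPM with toceranib in KU-cHCC-001, and at 59.3 to 355 CPM against 1.89 to 15.9 CPM in the other lines. Higher counts without each line in turn were 10, 3, 2 and 4 for lysosome, 5, 3, 2 and 2 for autophagy and 12, 3, 2 and 3 for hypoxia and glycolysis.

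Among 24 apoptosis regulators 7 were higher and 1 lower (median 0.57), 33.3% called against 27.6% of all genes tested. The initiator caspase CASP8 (1.75) and the BH3 protein BID (0.85), which promote death, were higher together with the inhibitors XIAP (1.65) and BIRC2 (1.01) and the protective BCL2A1 (1.59), BCL2L2 (1.39) and BCL2L1 (0.74), while the BH3 protein BMF (-1.87) was lower. CASP8 stood at 28.3, 15.3, 33.3 and 18.9 CPM with sorafenib and 8.18, 9.06, 6.57 and 4.29 CPM with toceranib, without overlap. Of 32 ribosome biogenesis genes 8 were higher and 0 lower (median 0.25), led by UTP4 (1.03), and the 25% called lay below the share of all genes. Under upper quartile scaling 4 were higher and 2 lower. Of 31 proteasome subunits 1 was higher, PSMD11 (0.83), and 1 lower, PSMC5 (-0.77), with a median of 0.02; the subunits higher were 2, 0, 0 and 0 and lower 1, 1, 0 and 0 without each line in turn. Without each line in turn the apoptosis count higher was 10, 4, 1 and 4 and the ribosome biogenesis count 10, 3, 1 and 3.

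Several receptors that the drugs are known to inhibit were at or near 0. In the 8 libraries together KIT had 2 counts and CSF1R 3, PDGFRB and FLT3 did not exceed 0.847 CPM, RET reached 1.19 CPM and KDR, the main VEGF receptor, 10.1 CPM in KU-cHCC-001; none of these 6 was tested. Of 10 tested kinase targets 2 were higher with sorafenib and 0 lower, 20% called against 27.6% of all genes tested. MAPK14, the p38 alpha kinase, stood at 28.5, 18.2, 28.8 and 27.1 CPM against 9.79, 6.42, 4.60 and 4.38 CPM, without overlap (2.06 ± 0.30, edgeR adjusted p = 0.00364). ARAF (0.84) was the other, and BRAF (0.51, edgeR adjusted p = 0.209) did not pass. FLT1, a VEGF receptor that did not pass (1.84, edgeR adjusted p = 0.203), stood at 25.5 to 37.4 CPM with sorafenib, and at 33.2, 33.5, 0.602 and 3.87 CPM with toceranib, low in the toceranib libraries of KU-cHCC-004 and KU-cHCC-005 alone. PDGFRA, a PDGF receptor, stood at 29.5, 10.3, 16.5 and 5.62 CPM with sorafenib and 37.5, 2.64, 5.97 and 3.26 CPM with toceranib. The groups overlapped, KU-cHCC-001 being high under both drugs, and it did not pass (0.95, 95% interval 0.07 to 1.83, edgeR adjusted p = 0.0975). The kinase count higher was 3, 1, 1 and 1 without each line in turn.

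Of 14 receptor ligands PDGFD was lower, at 1.23, 1.48, 0.733 and 0.818 CPM against 9.19, 14.9, 19.1 and 7.99 CPM (-3.53 ± 0.41, edgeR adjusted p = 0.00157), and KITLG (1.52) and PDGFA (0.89) were higher. The ligands called made up 21.4% of the list, against 27.6% of all genes tested. The groups did not overlap for PDGFD, and DMSO (2.87 CPM) and DPBS (15.2 CPM) differed in the same direction. All 9 tested drug transporters were called, 4 higher and 5 lower, against 27.6% of all genes tested. ABCC4 (2.61), ABCC1 (1.46) and ABCC5 (1.44), exporters of conjugates and nucleotides, and the phospholipid transporter ABCB4 (1.47) were higher. ABCC6 (-3.51), ABCG2 (-2.14) and ABCB1 (-1.07), which encodes P-glycoprotein, were lower with ABCC3 and the uptake carrier SLCO4A1 (-1.04). ABCB1 stood at 139 CPM with sorafenib and 138 CPM with toceranib in KU-cHCC-001, and at 29.4 to 64.6 against 117 to 126 CPM elsewhere. Counts higher and lower were 4 and 5, 3 and 2, 1 and 1, and 3 and 1 without each line in turn. They were 1 and 0 without the block for line, and 1 and 0 with the vehicles subtracted, where ABCB4 (-2.19) and ABCG2 (0.44) turned sign. For the ligands the counts higher were 4, 1, 0 and 0, and PDGFD was the lower one in the reported fit.

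Cell identity markers leaned lower with sorafenib. Of 16 cholangiocyte and progenitor markers 7 were lower and 1 higher (median -1.19, median vehicle difference -0.99). The share called was 50%, against 27.6% of all genes tested. Besides SPP1, the transcription factor SOX4 (-1.95) and the surface and junction genes CLDN4 (-1.34), CLDN7 (-2.92) and CD24 (-1.97) were lower and the hyaluronan receptor CD44 (1.63) was higher. SOX4 stood at 35.2, 26.9, 42.3 and 31.9 CPM with sorafenib and 53.8, 133, 180 and 207 CPM with toceranib, without overlap. CLDN7 in KU-cHCC-001 stood at 0.0440 CPM with sorafenib, 24.9 CPM with toceranib and 0.263 CPM with DMSO, and 116 to 741 CPM in the drug libraries of the other lines. The count lower was 8, 5, 5 and 5 without each line in turn. With the vehicles subtracted the list turned direction, with 2 lower, 1 higher and a median of 0.57, and CLDN4 (1.41), CLDN7 (0.26) and CD24 (0.47) turned sign. The DPBS library labelled KU-cHCC-001 held CLDN4 at 511 CPM and CLDN7 at 367 CPM, against 1.68 and 0.263 CPM in the DMSO library of that line. CD24 went the other way there (1.62 against 2.47 CPM). The vehicle values of this list thus rest on labels in doubt.

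Of 10 tested hepatocyte markers, out of 34 listed, 5 were lower and 0 higher (median -1.0): the liver factors HNF4A (-1.69), FOXA1 (-1.12) and FOXA3 (-2.95), the lipoprotein APOB (-2.23) and AFP (-3.22, at most 9.57 CPM). The share called was 50%, against 27.6% of all genes tested. HNF4A stood at 2.68, 51.3, 25.5 and 31.3 CPM with sorafenib and 30.7, 97.2, 78.2 and 61.8 CPM with toceranib. Each line was lower, and the groups overlapped through KU-cHCC-001. The count was 7, 3, 0 and 2 without each line in turn. With the vehicles subtracted none was called (median -0.32), and HNF4A (0.23), FOXA3 (0.27) and APOB (1.51) turned sign. Of 14 tested mesenchymal markers CDH2 (1.31) and SNAI2 (2.42) were higher and S100A4 (-1.47) lower, while COL1A1 (-3.61, edgeR adjusted p = 0.109) and COL1A2 (-3.03, 0.277) did not pass and were highest in the toceranib library of KU-cHCC-005. The mesenchymal share called was 21.4%, against 27.6% of all genes tested. The list median of -0.46 became 0.29 without KU-cHCC-005 and 1.04 with the vehicles subtracted. Counts higher were 3, 2, 2 and 2 and lower 2, 1, 0 and 1 without each line in turn. None of 5 tested endothelial markers and 1 of 4 leukocyte markers, CD68, passed, and PTPRC, the pan-leukocyte antigen, was at most 0.153 CPM in the 8 libraries.

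Part of the drug difference had a counterpart in the vehicles. Across the 14320 genes the drug difference and the DMSO minus DPBS difference, which share no library, correlated at Pearson's r = 0.43. Of the 3949 called genes 70.8% had the same sign in both, against 57.7% of genes not called, and 1069 (27.1%) had a vehicle difference of the same sign and at least 50% of the size. With each drug set against its own vehicle 1202 genes were called, 991 of them among the 3949. The DPBS libraries did not all match the lines on their labels and formed a pair of close pairs, so these values rest on labels in doubt. The sterol synthesis list had a median vehicle difference of 0.03, and the mitochondrial, cholangiocyte, stress response and NRF2 lists had vehicle differences of the same sign as the drug difference.

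**Figure D5:**
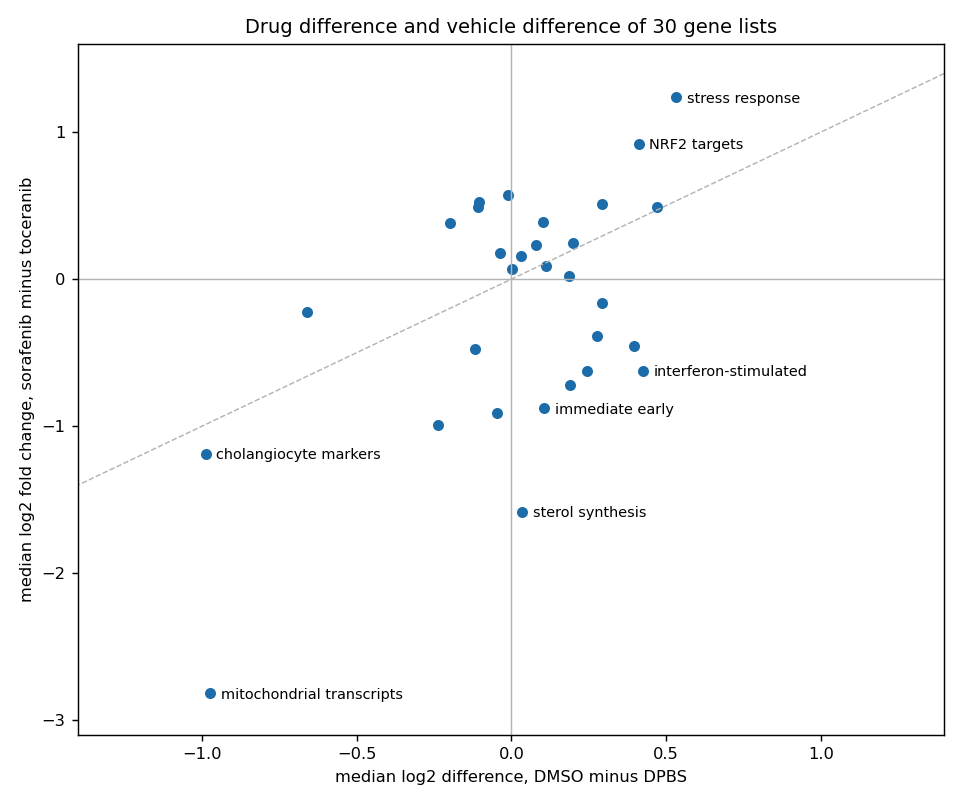
Each point is 1 of 30 gene lists: median log2 difference between the vehicles, DMSO minus DPBS (horizontal), against the median log2 fold change between the drugs (vertical); the dashed line marks equal values. Sterol synthesis lies at 0.03 and -1.58, mitochondrial transcripts at -0.97 and -2.82, and cholangiocyte markers at -0.99 and -1.19, close to the dashed line. The horizontal values rest on DPBS labels in doubt.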

How the data were processed

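The authors deposited, for each library, 1 table of whole-number counts by gene symbol. Per the submitters' processing notes TopHat was used; the counting tool and strand setting, and the build and gene models, were not given in the sources used. Genes that overlap, lie antisense or have near-identical copies, mitochondrial genes with nuclear copies included, are therefore uncertain. Per the labels' protocols the NEBNext Ultra II Directional kit was used.

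Of 39954 entries per table, 500 shared 89 symbols and were summed to 39543 symbols. The 8 drug libraries were fitted with edgeR 4.0.16 in R 4.3.3: filterByExpr by drug (14320 genes), TMM, and a robust quasi-likelihood F-test with the line as a block (3 residual degrees of freedom), Benjamini-Hochberg adjusted over all genes tested and called under 0.05. Log2 fold changes carry their SE, and 95% intervals use the fit's degrees of freedom. CPM were put on 1 TMM scale over the 16 libraries, and per-line differences are of log2(CPM + 0.5). The p-values measure the spread between these 4 lines with 1 library per drug. Reads carry no molecular identifiers, so counting intervals cover counting error only.

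The labels pair libraries by cell line. Deviations from the drug means correlated at 0.514 to 0.734 within lines, above each library's correlation with the other lines (-0.539 to 0.223). On simulated counts for this comparison (14320 genes) the fit recovered 21% of 2-fold and 93% of 4-fold changes, and 1.72% of its calls were false. The simulation gave every gene the common dispersion of 0.0996 and changed 100 genes at each fold, far fewer than were called in the data. These shares may therefore not hold for the data. Alternatives were other scalings, filters, tools (limma 3.58.1 voom and DESeq2 1.42.0), libraries and designs.

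Members and lists were chosen with earlier results of these data known, so lists have no test and are described by counts and medians. Of 846 symbols in 35 lists, 811 were in the tables and 719 were tested. Named genes were the 12 largest changes in each direction among called genes with a name, 1 sign in 4 lines and 5 CPM or more on average with a drug, and per list the called members of smallest p, the largest changes and members whose roles the account needs. Sequences were not used here.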

Additional observations from a re-analysis of the deposited data

Results flagged for a closer look

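Of 69 sets of 4 values examined, 8 held a library or line whose gap to its nearest neighbour was large against the range of the set. Chance flags about 1 in 20 such sets. The median difference of the mitotic genes was -1.41 in KU-cHCC-005 against -0.45 to -0.31 in the other lines, and that of the mesenchymal markers was -0.97 in the same line against -0.20 to -0.07. The median of the p53 targets was 0.12 in KU-cHCC-001 and 0.54 to 0.57 elsewhere. Among single genes, PLEKHS1 differed by -0.70 on the log2 scale in KU-cHCC-001 against -5.11 to -4.68 in the others. In the same line DCDC2 differed by -1.72 (others -5.24 to -4.69) and GGT1 by -6.29 (others -3.01 to -2.91). PLCE1 differed by 2.76 in KU-cHCC-002 and by 4.59 to 4.93 in the other lines. The 50 most abundant genes took 16.5% of counts in the toceranib library of KU-cHCC-001 and 22.3% to 22.9% in the other toceranib libraries. Why these values stand apart was not tested.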

How the results depend on the processing

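The number of genes called, sorafenib against toceranib, depended on the design and on the lines more than on scaling or tool. No gene called both in the reported fit and in an alternative had another sign there. Without the replicate block, which ignores the pairing by line, 1649 genes were called (854 higher, 795 lower). With the vehicles subtracted, an alternative chosen after seeing the data, 1202 were called (694 higher, 508 lower). Leaving out 1 line gave 819 to 6008 calls, 345 to 2771 genes higher with sorafenib and 474 to 3237 genes lower with sorafenib, and leaving out KU-cHCC-004 with KU-cHCC-005 gave 667 (233 higher, 434 lower). Scaling, tool and filter alternatives gave 3907 to 5046 calls. With the vehicles subtracted the sign turned for ABCB4 (-2.19), ABCG2 (0.44), APOB (1.51), CD24 (0.47), CLDN4 (1.41), CLDN7 (0.26), CTSK (0.17), FOXA3 (0.27) and HNF4A (0.23), and the cause was not tested. For some of these genes the DPBS library labelled KU-cHCC-001 differed widely from the DMSO library of that line (HNF4A at 119 against 5.57 CPM). The vehicle-subtracted values thus rest on labels in doubt. With COX1 included, the difference in the mitochondrial share of counts was -8.63 percentage points, and -10.0 to -7.46 without 1 line. With 1 library per line and drug, a gene that did not pass may still differ. The fit recovered 21% of 2-fold changes in a simulation with a single dispersion and few changed genes, unlike the data.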

Other observations

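KU-cHCC-001 moved against the other lines at a small set of genes, chosen after their values were seen and not tested. Of these, 23 genes were at least 2-fold higher with sorafenib in KU-cHCC-001 and at least 2-fold lower in the other lines, and 12 had the reverse pattern. PTX3, a secreted pentraxin of innate immunity, differed by 1.72 on the log2 scale in KU-cHCC-001 and by -2.57, -3.21 and -4.78 in the others. Its levels were near the floor, at 1.14 CPM with sorafenib and 0 CPM with toceranib in KU-cHCC-001. In the other lines sorafenib gave 0.0492 to 0.409 CPM. The highest level was 24.4 CPM in the toceranib library of KU-cHCC-005, which matched its label only in part. PRKD1, protein kinase D1, differed by 1.99 and by -1.55, -2.51 and -2.85, with sorafenib at only 0, 0 and 0.307 CPM in the other lines. AQP3, a water and glycerol channel, differed by -1.20 in KU-cHCC-001 and by 2.60, 3.46 and 1.97 elsewhere. SULT2B1, which sulfates cholesterol, differed by -2.63 and by 1.75, 1.24 and 2.07. A pair of entries without a gene name, LOC119877775 and LOC119877738, had 0 counts in all 4 toceranib libraries and at least 158812 and 508 counts in each sorafenib library. Both were also at 0 in all 4 DPBS libraries and in DMSO for KU-cHCC-005 and for KU-cHCC-002. Both had counts in DMSO in the remaining lines, and whether the libraries were counted by 1 rule was not tested, so this is not given as a difference between the drugs.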
